A study of Rattus norvegicus with 12 samples.

Results

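The TNF receptor superfamily is a group of receptors with cysteine-rich extracellular domains that bind ligands of the TNF family. Some members carry a cytoplasmic death domain through which they can start apoptosis, and others bind TRAF adaptors and switch on NF-kappaB. In pancreatic beta cells TNF acts together with other cytokines to impair insulin secretion and survival. The 8 members described here are Ngfr, Tnfrsf11b, Tnfrsf1a, Tnfrsf1b, Tnfrsf12a, Tnfrsf21, Fas and Ltbr, out of 18154 genes measured. Each had 1 gene-level transcript cluster with that symbol alone, and together they had 70 of the 166557 exon-level probe sets with a single symbol. Ngfr and Tnfrsf11b were chosen for their large differences from control in earlier results on the same arrays, and the other 6 were listed with those results known. The differences of all 8 from control are therefore given as a description, with no test.

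Levels came from INS1E, a rat beta-cell line that secretes insulin, in 3 stably transfected clones. The control clone carried the empty vector pcDNA3, and the others carried human IAPP (hIAPP) or rat IAPP (rIAPP). IAPP, also called amylin, is co-secreted with insulin, and the human peptide aggregates into amyloid while the rat peptide does not. The medium of all clones held 11.1 mM glucose and geneticin, and cells were collected after 3 days. Each clone was measured on 2 Affymetrix arrays, a and b, so 6 arrays in all. Since each group is 1 clone, effects of the clone and of the transgene cannot be told apart. Nothing in the labels says that a and b are separate cultures, so the p-values cover the spread of the arrays within a clone, which may be technical. Between arrays of a clone Pearson r across genes was 0.9987 to 0.9990, and between clones 0.9934 to 0.9955 (genes are not independent replicates). All 8 measured beta-cell markers, Iapp, Ins1 and Ins2 among them, lay at or above the median level of all genes, but several differed between clones. In hIAPP limma called 2 of the 8 higher and 3 lower, and in rIAPP 2 higher and 2 lower, in a test adjusted over all genes. Of all genes 10.1% were called higher and 8.92% lower in hIAPP, and 8.7% higher and 7.29% lower in rIAPP. Ins1 was lower by −0.57 in hIAPP and −0.51 in rIAPP (limma adjusted p = 0.00243 and 0.00565), and Ins2 by −0.74 and −0.64 (0.0131 and 0.0269). The part of these shifts in the receptor results was not tested.

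Ngfr, the low-affinity neurotrophin receptor with a death domain, was low in the control clone and high in both transfected clones. Its log2 level was 8.25 and 8.48 in the control arrays, 10.20 and 10.20 in hIAPP, and 10.39 and 10.34 in rIAPP. The 4 arrays of the transfected clones lay above both control arrays, and the 2 rIAPP arrays lay above the 2 hIAPP arrays. The difference from control was 1.83 in hIAPP (SE 0.0745) and 2.00 in rIAPP (SE 0.0745) on the log2 scale, or 3.56-fold and 4.01-fold. Between hIAPP and rIAPP it was −0.17 (SE 0.0745). The order of the clones was control, hIAPP and rIAPP, with far smaller space between the last pair than between either and the control.

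Tnfrsf11b, the secreted decoy receptor osteoprotegerin, which binds the ligands Tnfsf11 (RANKL) and Tnfsf10 (TRAIL), had the same order of clones, with rIAPP further above hIAPP. Its log2 level was 8.06 and 8.32 in control, 10.00 and 10.05 in hIAPP, and 10.91 and 10.88 in rIAPP. No array of a clone overlapped an array of another. The difference from control was 1.83 in hIAPP (SE 0.0829) and 2.70 in rIAPP (SE 0.0829), or 3.56-fold and 6.51-fold. Between hIAPP and rIAPP the difference was −0.87 (SE 0.0829), a level 1.83-fold higher in rIAPP. Of all 18154 genes, 87 were higher by at least 1 on the log2 scale in hIAPP and 50 in rIAPP, and Ngfr and Tnfrsf11b were among both. The plot of levels by array shows both genes beside the 6 other members.

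**Figure D1:**
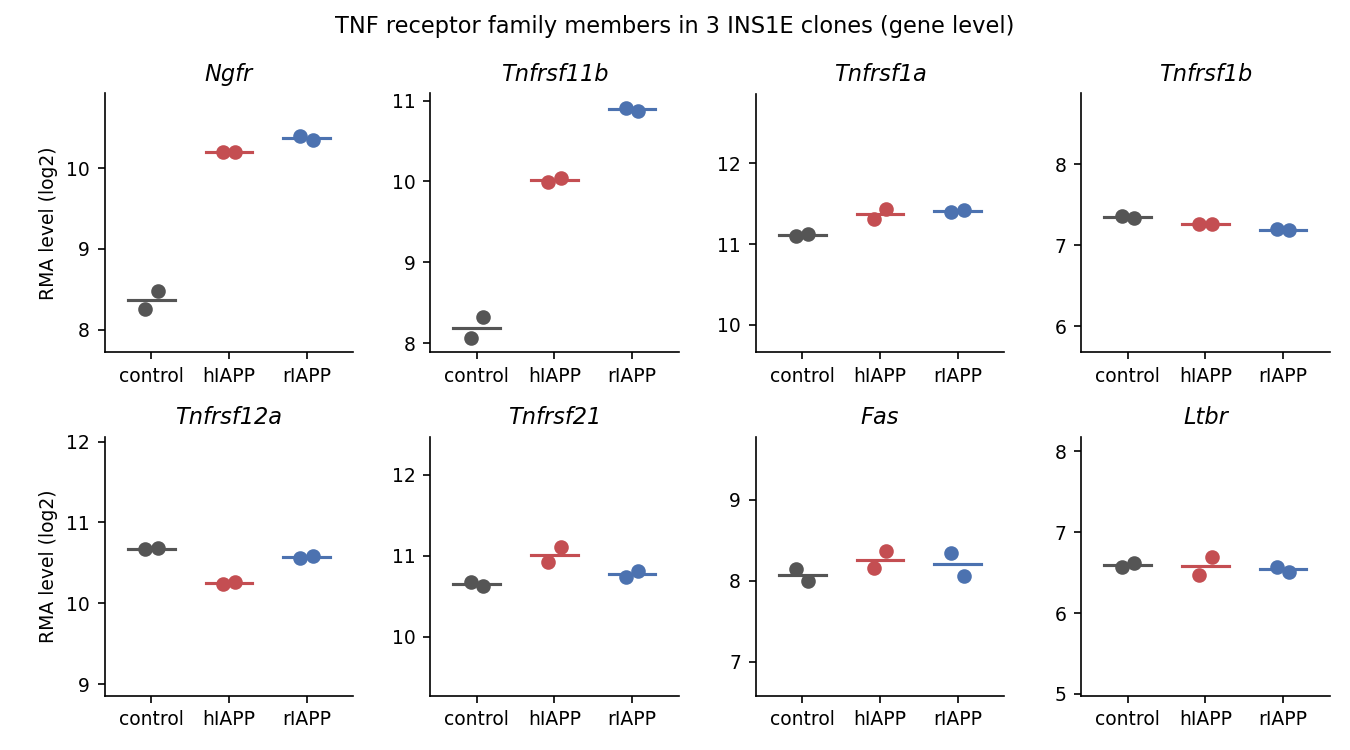
Gene-level RMA values (log2, vertical axes of equal span) of the 8 members in the control, hIAPP and rIAPP clones. Each point is an array, a on the left and b on the right, and each line is the mean of 2 arrays. Ngfr and Tnfrsf11b lie near 8 in control and at or above 10 in the transfected clones, while the other members move by less than 0.5.

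The exon-level probe sets, which come from the same hybridisations, showed how these differences were spread over the transcripts. For Tnfrsf11b all 6 probe sets were higher in both transfected clones without overlap between arrays, as were 25.4% of all probe sets in hIAPP and 27.7% in rIAPP. Their log2 differences ran from 1.11 to 2.62 in hIAPP and from 2.02 to 3.65 in rIAPP. All 6 were also lower in hIAPP than in rIAPP without overlap, by −1.08 to −0.76, against 23.3% of all probe sets.

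Ngfr was less even. Of its 8 probe sets 7 were higher without overlap in both transfected clones and 1 was lower without overlap in both (23.7% of all probe sets in hIAPP and 22.4% in rIAPP were lower), with a median difference over the 8 of 1.91 in hIAPP and 2.09 in rIAPP. The largest difference was at probe set 17660366, which read 6.69 and 7.06 in control, 10.40 and 10.19 in hIAPP, and 10.58 and 10.29 in rIAPP. Probe set 17660369 differed by 0.60 and 0.74. Probe set 17660370 read 10.31 and 10.39 in control, 10.09 and 10.29 in hIAPP, and 10.19 and 10.30 in rIAPP, which put it slightly lower in both transfected clones. In the control arrays it was the brightest of the 8 Ngfr probe sets. Which part of the transcript each probe set covers was not analysed here, and whether the flat probe set measures Ngfr RNA alone was not tested.

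**Figure D2:**
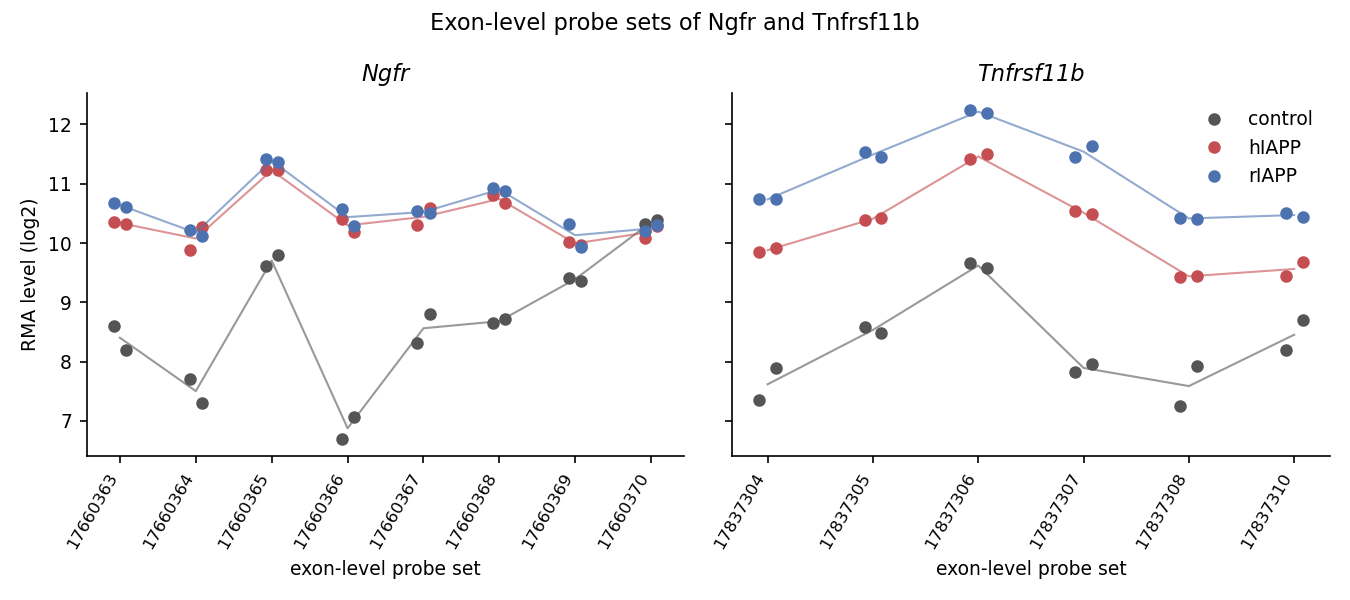
Exon-level RMA values (log2) of the probe sets of Ngfr and Tnfrsf11b, in order of probe set number. Points are arrays and lines join the means of 2 arrays per clone. The clones stay apart, by unequal distances, at all 6 probe sets of Tnfrsf11b, and they meet near 10.3 at probe set 17660370 of Ngfr.

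Both genes are known from other cell types, Ngfr from Schwann and neural crest cells and Tnfrsf11b from stromal cells. In bulk RNA more cells of a type and more RNA per cell cannot be told apart. Markers of those cells were mostly dim, and their part in the results was not tested. Of 6 measured Schwann and neural crest markers only Mbp lay at or above the median level of genes, and the summed level of the list was 11.63 to 11.64 in control, 11.43 to 11.50 in hIAPP and 11.36 to 11.45 in rIAPP (log2 of summed linear values), most of it from Mbp. Of 9 fibroblast and stellate markers only Thy1 did so, and the summed level was 12.20 in both control arrays, 11.79 to 11.89 in hIAPP and 11.68 to 11.72 in rIAPP, most of it from Thy1. Single dim markers went the other way in rIAPP without a call, Pdgfra by 0.17 (limma adjusted p = 0.136) and Foxd3 by 0.10 (limma adjusted p = 0.473). Sox10, which defines the neural crest lineage, read 7.55 to 7.83 over the 6 arrays, and Col1a1, the fibroblast collagen, 7.45 to 7.58. No measured endothelial or leukocyte marker reached the median level. The summed level of the 6 leukocyte markers was 8.82 to 8.83 in control, 8.90 to 8.92 in hIAPP and 8.953 to 9.003 in rIAPP. Limma called 1 of these 6 higher in hIAPP and 1 in rIAPP, where 10.1% and 8.7% of all genes were, and 0 lower. The largest rise of a leukocyte marker was 0.30 in hIAPP and 0.37 in rIAPP. The part of these markers in the results was not tested.

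The death-domain receptors Tnfrsf1a and Tnfrsf21 were bright in every clone and higher than control in both transfected clones. Tnfrsf1a, the main signalling receptor for TNF, read 11.10 and 11.12 in control, 11.31 and 11.43 in hIAPP, and 11.39 and 11.43 in rIAPP. Its arrays did not overlap those of control, with differences of 0.26 (SE 0.0555) and 0.30 (SE 0.0555), while hIAPP and rIAPP overlapped. All 10 of its probe sets were higher on average than in control in both clones, by 0.12 to 0.50 and by 0.17 to 0.48.

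Neighbours of a member were the 50 nearest genes on its chromosome among those at or above the median level of all genes. On chromosome 4 of the GRCr8 annotation the neighbours of Tnfrsf1a were also higher in hIAPP, with a median difference of 0.24. That left 0.02 for Tnfrsf1a after subtraction. In rIAPP the same neighbours had a median of 0.08, which left 0.22. Ltbr lies in the same stretch, with a neighbour median of 0.25 in hIAPP, and itself differed by −0.02 there. For Ngfr and Tnfrsf11b the medians of the neighbours ran from −0.01 to 0.09 against control.

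Tnfrsf21, a death receptor known from neurons, read 10.67 and 10.63 in control, 10.92 and 11.11 in hIAPP, and 10.74 and 10.82 in rIAPP. The order was control, rIAPP and hIAPP with no overlap between any pair of clones. The difference from control was 0.36 in hIAPP (SE 0.0700) and 0.13 in rIAPP (SE 0.0700). All 8 probe sets were higher on average in hIAPP than in control, and 7 of 8 in rIAPP. Fas, the receptor whose ligand kills beta cells in autoimmune islet disease, read 8.15 and 7.99 in control, 8.16 and 8.37 in hIAPP, and 8.34 and 8.06 in rIAPP. Its rIAPP arrays overlapped those of control, and its 2 hIAPP arrays lay above both control arrays, though the lower of them by less than the spread within either clone.

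Tnfrsf12a, Tnfrsf1b and Ltbr, which lack a death domain, lay below control or overlapped it. Tnfrsf12a, the receptor for TWEAK and an early growth-factor-responsive gene, read 10.67 and 10.68 in control, 10.23 and 10.26 in hIAPP, and 10.55 and 10.58 in rIAPP. No clone overlapped another. The difference from control was −0.43 in hIAPP (SE 0.0464) and −0.11 in rIAPP (SE 0.0464), and all 5 probe sets were lower than control on average in both. Tnfrsf1b, the second TNF receptor, which binds TRAF adaptors, read 7.36 and 7.34 in control, 7.26 and 7.26 in hIAPP, and 7.19 and 7.19 in rIAPP. Its arrays were lower without overlap, while its 12 probe sets were mixed in hIAPP, with 7 higher and 5 lower on average. In rIAPP 10 of the 12 were lower on average, 6 of them without overlap, where 22.4% of all probe sets were lower without overlap. For the counts by average, those of Tnfrsf1a, Tnfrsf21 and Tnfrsf12a too, the share over all probe sets was not computed. Ltbr, the lymphotoxin beta receptor, read 6.57 and 6.62 in control, 6.47 and 6.69 in hIAPP, and 6.57 and 6.51 in rIAPP. Tnfrsf1b, Fas and Ltbr lay below the median level of genes, where background was not assessed.

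Counted over the 8 members, 5 were higher than control without overlap in hIAPP and 2 lower, where 27.2% of all genes were higher and 30.5% lower in that way. In rIAPP 4 were higher and 2 lower, where 31.3% of all genes were higher and 29.2% lower. These contrasts chose the leading members, so nothing is read from the counts. Over the 6 members other than Ngfr and Tnfrsf11b the median log2 difference was 0.09 in hIAPP and 0.04 in rIAPP, with a range of −0.43 to 0.36 and of −0.16 to 0.30. The median of all genes was −0.0126 in hIAPP and −0.00181 in rIAPP.

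**Figure D3:**
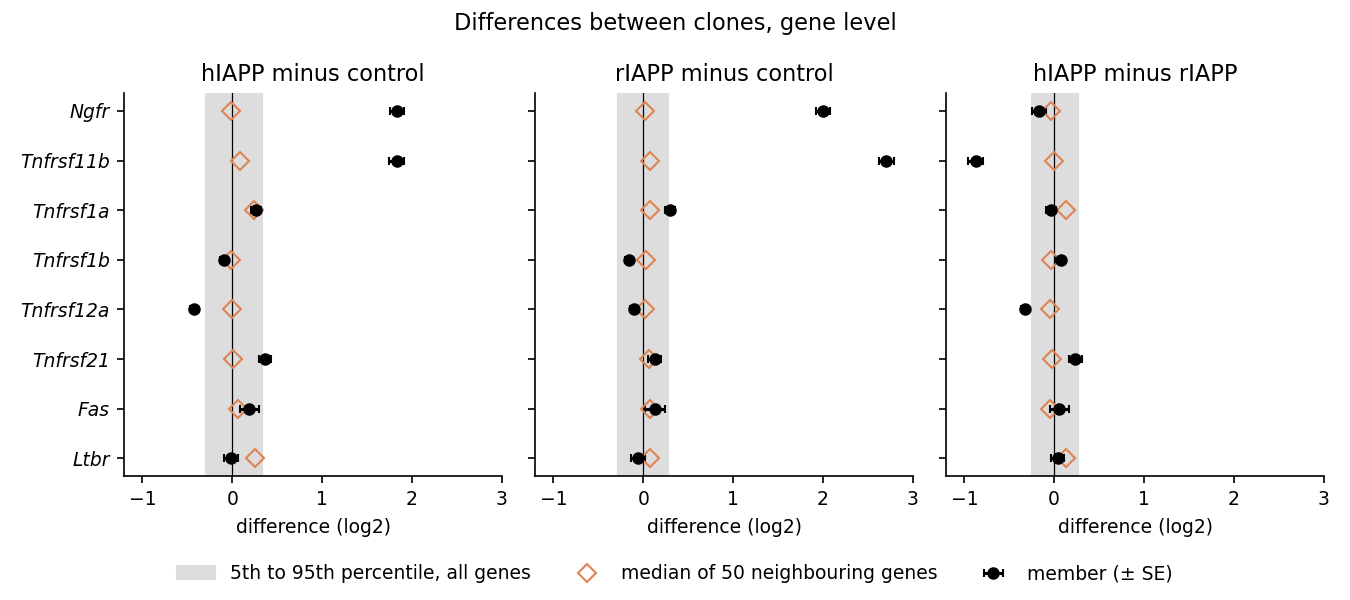
Log2 differences between clones for the 8 members (black points, bars ± SE of the fit). The grey band is the 5th to 95th percentile of all genes. Open orange diamonds are the median of the 50 nearest genes at or above the median level. Ngfr and Tnfrsf11b lie far outside the grey band against control, and Tnfrsf1a lies on its neighbours' median in hIAPP.

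The direct comparison of hIAPP with rIAPP was tested for the 6 members other than Ngfr and Tnfrsf11b, with limma and Benjamini-Hochberg adjustment over all 18154 genes. These 6 were listed with earlier results on the same arrays known, so they are not a blind list. The comparison shares its arrays with the contrasts above and is not independent of them. Of the 6, 1 was called lower in hIAPP, where 5.56% of all genes were, and 0 were called higher, where 6.11% of all genes were (1 at an unadjusted p under 0.05). Tnfrsf12a was lower in hIAPP by −0.32 (SE 0.0464, limma adjusted p = 0.00466), with both hIAPP arrays below both rIAPP arrays. With the median of exon-level probe sets in place of the gene-level value the difference was −0.32 and the adjusted p 0.114, over a range of 0.000175 to 0.114. Tnfrsf21 differed by 0.24 (SE 0.0700, limma adjusted p = 0.0768) and did not pass. Without hIAPP a it differed by 0.33 and passed (adjusted p = 0.0332), and without hIAPP b it differed by 0.14 (adjusted p = 0.259). The other 4 differed by −0.04 to 0.07, with limma adjusted p of 0.402 to 0.819, and their fits with an SE of 0.0456 to 0.109 do not show that the clones had equal levels. Without overlap 2 of all 8 members were higher in hIAPP than in rIAPP and 3 lower, where 24.2% and 28.7% of all genes were.

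Unequal change between probe sets of a gene was tested at exon level between hIAPP and rIAPP for genes with at least 4 probe sets at or above the median probe-set level. Of Tnfrsf1a, Tnfrsf12a and Tnfrsf21 limma's diffSplice F test called 0 (0 at an unadjusted p under 0.05), where 1.0% of 7270 genes were called, and the adjusted p ran from 0.805 to 1.00. Ngfr and Tnfrsf11b were chosen for their size, and some of their probe sets reached the median level only through the transfected clones, so no test is given for them. Tnfrsf1b, Fas and Ltbr did not enter the test.

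RefSeq promoters in the GRCr8 build, 250 bases before to 50 after the start site, were held for 6 of the 8 members, Tnfrsf1a, Tnfrsf1b, Tnfrsf12a, Tnfrsf21, Fas and Ltbr. The 3 shown belong to the bright members, after Ngfr and Tnfrsf11b, that separated from control in both transfected clones: Tnfrsf12a, on the minus strand at chr10:13213599-13213898, Tnfrsf21, on the minus strand at chr9:25451274-25451573, and Tnfrsf1a, on the plus strand at chr4:159836869-159837168. Capitals mark the GC box, GGGCGG on either strand.
Tnfrsf12a: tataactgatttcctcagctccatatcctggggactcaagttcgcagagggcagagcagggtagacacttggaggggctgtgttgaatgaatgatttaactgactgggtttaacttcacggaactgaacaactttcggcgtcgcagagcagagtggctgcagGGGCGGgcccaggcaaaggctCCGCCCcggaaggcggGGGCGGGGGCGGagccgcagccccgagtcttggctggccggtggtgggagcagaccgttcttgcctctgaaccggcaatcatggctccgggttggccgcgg
Tnfrsf21: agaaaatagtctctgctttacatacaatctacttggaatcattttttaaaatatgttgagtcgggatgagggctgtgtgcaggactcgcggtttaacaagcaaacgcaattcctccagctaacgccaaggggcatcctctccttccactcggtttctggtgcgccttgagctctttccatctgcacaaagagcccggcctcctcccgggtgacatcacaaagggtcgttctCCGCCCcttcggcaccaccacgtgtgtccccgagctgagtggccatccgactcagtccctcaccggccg
Tnfrsf1a: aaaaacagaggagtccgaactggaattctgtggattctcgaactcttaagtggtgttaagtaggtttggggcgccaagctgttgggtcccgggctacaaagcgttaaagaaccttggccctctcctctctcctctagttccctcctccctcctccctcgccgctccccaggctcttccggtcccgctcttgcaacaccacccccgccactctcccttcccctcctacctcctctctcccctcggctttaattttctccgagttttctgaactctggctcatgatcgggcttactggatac
The GC box, the letters bound by Sp1-type factors, occurred 4 times in Tnfrsf12a, 1 time in Tnfrsf21 and 0 times in Tnfrsf1a, and 33.1% of 33469 promoters held it. The promoters had 61.3%, 54.3% and 55.7% G and C, against a median of 51.7%. A TATA box (TATAAA, in 14.2% of all promoters), an AP-1 site (TGANTCA, in 7.33%) and a kappaB form of 10 bases (in 0.36%) were searched on both strands, no match overlapped that of another motif, and none of the 3 was in these windows. These are matches of letters and not sites of binding.

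Likeness to Ngfr or Tnfrsf11b was the root mean squared distance between profiles over the 6 arrays, each centred on its own mean. The likest genes, with the smallest distance, were sought among 9063 genes at or above the median level. Symbols that start with LOC or RGD were left out. For Ngfr they were the inositol trisphosphate kinase Itpkb (distance 0.13 on the log2 scale), the ER degradation gene Derl3 (0.15), the tyrosine kinase gene Frk (0.16), Tmem176a (0.25) and the ER oxidase Ero1b (0.25). Tnfrsf11b stood at 0.33. For Tnfrsf11b they were Crispld1 (0.16), Itpkb (0.28), Tmem176a (0.31), Ngfr (0.33) and Car8 (0.39). Between hIAPP and rIAPP Crispld1 differed by −1.21 and Tmem176a by −0.61, beside −0.87 for Tnfrsf11b. These genes were picked for likeness over the same arrays, so their like differences follow from the choice and nothing is read from them. In control Itpkb, Derl3, Frk, Tmem176a and Crispld1 had means of 7.51 to 8.09, below the median level of 8.45. They entered the comparison only through the transfected clones.

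The other genes of the pathway were taken from 6 lists by function, 113 of 125 of them measured, none of them a member. In hIAPP 15 of the 113 rose against control and 6 fell, where 10.1% of all genes rose and 8.92% fell. In rIAPP 15 rose and 7 fell, where 8.7% rose and 7.29% fell. Between hIAPP and rIAPP 8 were higher and 9 lower in hIAPP, where 6.11% and 5.56% of all genes were. The median difference of the 113 was −0.00158 in hIAPP, 0.00697 in rIAPP and −0.0372 between the clones, beside −0.0126, −0.00181 and −0.00932 over all genes. Adjusted p below are from limma over all genes.

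Most ligands of the members lay below the median level of genes and were not called. Tnf read 7.12 to 7.36 over the 6 arrays, Lta 6.26 to 6.49, Ltb 7.32 to 7.61, Faslg 6.17 to 6.32, Tnfsf11 7.56 to 7.69 and Tnfsf14, a ligand of Ltbr, 6.94 to 7.17. Of the 15 measured ligands limma called 0 in hIAPP (4 at an unadjusted p under 0.05), where 10.1% of all genes rose and 8.92% fell. In rIAPP it called 1, where 8.7% of all genes rose and 7.29% fell. That was Tnfsf10, the death ligand TRAIL that osteoprotegerin binds. Tnfsf10 read 9.77 and 9.82 in control, 10.10 and 10.00 in hIAPP, and 8.52 and 8.72 in rIAPP. It fell by 1.18 in rIAPP (SE 0.0762, adjusted p = 9.06e-05), differed by 0.25 in hIAPP (adjusted p = 0.0583), and was higher in hIAPP than in rIAPP by 1.43 (SE 0.0762, adjusted p = 4.6e-05). The lower clone for Tnfsf10 was thus rIAPP, where Tnfrsf11b was highest.

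Among 18 other receptors of the family 2 rose and 1 fell in hIAPP, where 10.1% of all genes rose and 8.92% fell. In rIAPP 1 rose and 3 fell, where 8.7% of all genes rose and 7.29% fell. Tnfrsf11a, the signalling receptor RANK for the same ligand that osteoprotegerin traps, read 8.79 and 8.81 in control, 8.08 and 8.15 in hIAPP, and 8.26 and 8.36 in rIAPP. It fell by 0.69 (SE 0.0554, adjusted p = 0.000199) and by 0.49 (SE 0.0554, adjusted p = 0.00127). Eda2r, a receptor for ectodysplasin and a p53 target, rose by 0.55 (adjusted p = 0.00153) and by 0.77 (adjusted p = 0.000399). Tnfrsf14, the herpesvirus entry mediator, fell by 0.50 in rIAPP (adjusted p = 0.00392) and was higher in hIAPP than in rIAPP by 0.70 (adjusted p = 0.00112). Over the 6 arrays Eda2r read 7.29 to 8.14 and Tnfrsf14 7.62 to 8.45. On average Tnfrsf11a, Eda2r and Tnfrsf14 lay below the median level of genes, where background was not assessed.

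Tnfrsf9, a costimulatory receptor of T cells, was called higher in hIAPP by 0.20 and lower in rIAPP by −0.29, at levels of 6.53 to 7.07. The hIAPP call ended with an intensity trend (adjusted p = 0.0691), without control a (adjusted p = 0.0936), control b (0.102), hIAPP a (0.0863) or hIAPP b (0.0616), and the rIAPP call without rIAPP a (0.054). Between the clones Relt (−0.19) and Tnfrsf13c (−0.20) were also called, and both calls ended when any of the 6 arrays was left out (adjusted p up to 0.208 and 0.17). Tnfrsf9 and Tnfrsf13c lay on average below the median level of genes, where background was not assessed.

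Of 17 measured neurotrophins and partners of Ngfr 2 rose and 4 fell in hIAPP, where 10.1% of all genes rose and 8.92% fell. In rIAPP 2 rose and 2 fell, where 8.7% of all genes rose and 7.29% fell. The ligands Bdnf (7.06 to 7.19), Ntf3 (6.90 to 6.99) and Ntf4 (6.31 to 6.63) were below the median level in all arrays. Ntrk3, the tyrosine kinase receptor for neurotrophin-3, read 10.93 and 10.87 in control, 11.54 and 11.58 in hIAPP, and 11.77 and 11.78 in rIAPP, the same order of clones as Ngfr. It rose by 0.66 (SE 0.0486, adjusted p = 0.000126) and by 0.87 (SE 0.0486, adjusted p = 4.21e-05).

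Ntrk2, the receptor for Bdnf, fell by 0.39 in hIAPP (adjusted p = 0.00431) and was level with control in rIAPP (0.0040, adjusted p = 0.976). The sortilin-family receptors Sorcs2 and Sorcs1 were lower in both, Sorcs2 by −0.50 (adjusted p = 0.000772) and −0.46 (adjusted p = 0.00146), and Sorcs1 by −0.33 and −0.27. Sorcs1 read 7.78 to 8.20 over all arrays, below the median level of genes. The calls of Sorcs1 ended in hIAPP without control a (adjusted p = 0.064) or hIAPP b (0.0544), and in rIAPP without control a (0.141), rIAPP a (0.0523) or rIAPP b (0.158). Zfp110, an Ngfr-binding zinc finger protein, rose in rIAPP by 0.60 (adjusted p = 0.000796). Sort1, the co-receptor of Ngfr for proneurotrophins, was lower in hIAPP than in rIAPP by −0.25, a call that was lost (adjusted p 0.0539 to 0.109) with either array of either clone left out.

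Among 31 receptor adaptors and proximal signalling genes 5 rose in each transfected clone and limma called 0 lower (1 in hIAPP and 0 in rIAPP at an unadjusted p under 0.05). Of all genes 10.1% rose and 8.92% fell in hIAPP, and 8.7% rose and 7.29% fell in rIAPP. Ikbkb, the kinase that releases NF-kappaB in the canonical route, rose in hIAPP by 0.46 (SE 0.0487, adjusted p = 0.000688) and was higher there than in rIAPP by 0.39 (adjusted p = 0.00245). Cflar, which blocks caspase-8 at death receptors, read 8.86 and 8.84 in control, 9.26 and 9.32 in hIAPP, and 8.83 and 8.87 in rIAPP. It rose in hIAPP by 0.44 (SE 0.0486, adjusted p = 0.000847). Map3k14, the kinase of the non-canonical route, rose by 0.46 in hIAPP (adjusted p = 0.00493) and by 0.43 in rIAPP (adjusted p = 0.0085, and 0.0616 without rIAPP a). Smaller rises of Cyld in hIAPP (0.22) and of Traf6 (0.23) and Daxx (0.23) in rIAPP were each lost without any single array of those clones, with adjusted p of up to 0.14, 0.13 and 0.11. On average Map3k14 and Cyld lay below the median level of genes, where background was not assessed.

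Of 11 NF-kappaB subunits and inhibitors 4 rose in hIAPP and 6 in rIAPP, and limma called 0 lower (1 in each at an unadjusted p under 0.05). Over all genes 10.1% rose and 8.92% fell in hIAPP, and 8.7% rose and 7.29% fell in rIAPP. Nfkb2, the subunit processed in the non-canonical route, read 9.14 and 8.88 in control, 9.44 and 9.36 in hIAPP, and 9.73 and 9.93 in rIAPP. It rose by 0.81 in rIAPP (SE 0.0977, adjusted p = 0.00169). In hIAPP the rise of 0.39 (adjusted p = 0.0319) was not called without control b (0.136), hIAPP a (0.147) or hIAPP b (0.0836). Nfkbia, the inhibitor IkappaB-alpha, rose by 0.33 (adjusted p = 0.00229) and by 0.31 (adjusted p = 0.00451), and the inhibitor-like Nfkbiz by 0.68 (adjusted p = 0.000381) and by 0.55 (adjusted p = 0.00134). Nfkbiz lay on average below the median level of genes, where background was not assessed.

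Relb, the partner of Nfkb2, rose by 0.40 in rIAPP, a call that ended without control a (adjusted p = 0.0682), control b (0.0636) or rIAPP b (0.0994). Rel rose there by 0.33, and the call ended without control a (0.0609) or rIAPP b (0.0772). Nfkb2 (−0.43) and Relb (−0.37) were lower in hIAPP than in rIAPP, but not called without hIAPP a (adjusted p = 0.09 and 0.0723), rIAPP a (0.054 and 0.0721) or rIAPP b (0.18 and 0.144), and Nfkb2 also without hIAPP b (0.148).

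Of 21 measured NF-kappaB target genes 2 rose and 1 fell in hIAPP, where 10.1% of all genes rose and 8.92% fell. In rIAPP 1 rose and 1 fell, where 8.7% of all genes rose and 7.29% fell. Cxcl10, a chemokine of inflamed islets, read 8.24 and 8.50 in control, 8.97 and 9.29 in hIAPP, and 8.57 and 8.56 in rIAPP. It rose in hIAPP by 0.76 (SE 0.116, adjusted p = 0.00388). Gadd45b fell by 0.44 (adjusted p = 0.00281) and by 0.41 (adjusted p = 0.00482), and the growth factor gene Csf1 rose by 0.30 and 0.33. The calls of Csf1 ended without control a (adjusted p = 0.0538 in hIAPP and 0.0506 in rIAPP) and in rIAPP without rIAPP a (0.0548). Of the remaining called genes, Bcl3 rose by 0.33 in hIAPP (adjusted p = 0.00748, but 0.686 from exon-level medians). Tab2 rose by 0.18 in rIAPP, a call that ended under 11 of 15 alternatives. Between hIAPP and rIAPP Nfkb1 differed by −0.19, Ripk1 by 0.24 and Ptgs2 by 0.25, and these calls ended under 9 of 15, 8 of 15 and 6 of 14 alternatives, among them each array of either clone left out. With medians of exon-level probe sets in place of gene-level values, the adjusted p was 0.134 and 0.269 for Tnfrsf9 (hIAPP and rIAPP), 0.21 and 0.467 for Sorcs1, 0.0921 and 0.192 for Nfkbiz, 0.0936 and 0.127 for Gadd45b and 0.269 and 0.188 for Csf1. In hIAPP it was 0.0647 for Map3k14 and 0.706 for Nfkb2, and in rIAPP 0.0738 for Rel, so that these calls ended. Bcl3 and Ptgs2 lay on average below the median level of genes, where background was not assessed. The plot of pathway genes by list shows the genes named in these paragraphs.

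**Figure D4:**
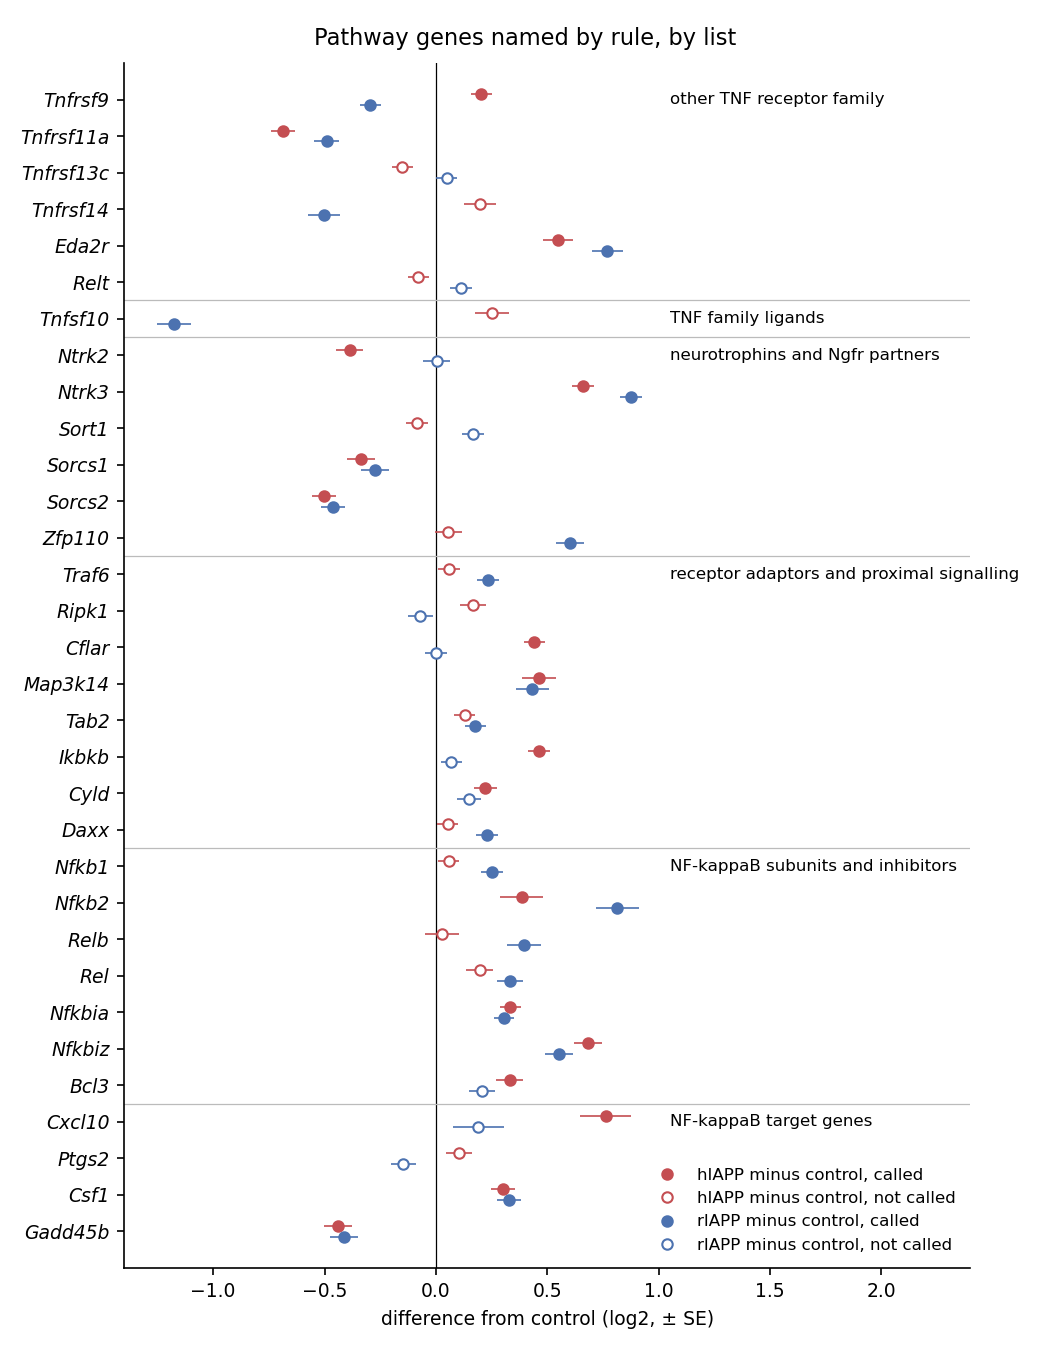
Log2 differences from control (± SE of the fit) in hIAPP (red) and rIAPP (blue) for the pathway genes named by rule, grouped by list. Filled points passed the limma test at an adjusted p under 0.05 and open points did not. Tnfsf10 lies at −1.18 in rIAPP, Tnfrsf11a is lower and Ntrk3 higher in both clones, and the filled points of the NF-kappaB subunit list all lie to the right of 0.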

How the data were processed

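The members and the gene lists were chosen with earlier results of these data known. The authors deposited log2 values at gene level (36685 transcript clusters) and at exon level (220231 probe sets) for the same 6 hybridisations. The submitters' processing notes name Affymetrix Expression Console and RMA, a method that removes background, equalises the arrays' distributions and combines probes. The software version and the array's genome build were not stated.

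A table of platform annotation gave 1 symbol for 18511 gene-level rows, several for 575 and none for 17599. Rows with 1 symbol were used, 32 symbols were updated to GRCr8 names, and the brightest row per symbol was kept, which left 18154 genes. Limma 3.58.1 in R 4.3.3 fitted group means to all 6 arrays (3 residual and 4.39 prior degrees of freedom). Calls needed an adjusted p under 0.05 (Benjamini-Hochberg over all genes). Exon use was tested with diffSplice on 77093 probe sets in 7270 genes. For the members it is printed only for hIAPP against rIAPP, since the contrasts with control chose the members. Against control only counts over all genes tested are given. The number of arrays limits the precision.

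On simulated data for hIAPP against control with 18154 genes, limma recovered 37.2% of changes of 0.25, 99.6% of changes of 0.5 and 100% of changes of 1, and 5.3% of its calls were false. For the exon test, with 7270 genes and 1 probe set shifted by 1, these were 97% and 24%. The noise was drawn independently for each value with the spread of the fit, and only a small share of genes was changed. Recovery with as many changed genes as were called in these data was not simulated.

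Named by rule were all members, up to 4 called genes by size per list and contrast, the 5 likest genes of Ngfr and of Tnfrsf11b, and the ligands and partners of members. Alternatives covered the spread model, the samples fitted, the normalization, low values, the probe summary, the array letters and each array left out.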

Additional observations from a re-analysis of the deposited data

Results flagged for a closer look

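Differences from control that were unlike in the transfected clones, by the test of hIAPP against rIAPP itself, drew attention to 2 genes. The 2 are not all the genes called in that test. Of the 113 pathway genes 8 were called higher in hIAPP than in rIAPP and 9 lower, where 6.11% and 5.56% of all genes were. The largest of these differences was 1.43, for Tnfsf10. Tnfrsf12a was lower in hIAPP than in rIAPP by −0.32 on the log2 scale, with means of 10.24 and 10.57 beside 10.67 in control. Tnfrsf9 was higher in hIAPP than in rIAPP by 0.50 (limma adjusted p = 0.000783), with means of 7.06 and 6.56 on either side of 6.85 in control. Its direct difference kept its call under all 14 alternatives run for it (adjusted p 0.000468 to 0.0494).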

How the results depend on the processing

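With 2 arrays per clone no alternative reversed a called difference of the members or of the pathway genes. Leaving out 1 array gave 1999 to 2871 called genes for hIAPP against control, 1217 to 2862 for rIAPP and 922 to 1779 between the clones, and 15 to 22, 13 to 20 and 6 to 14 pathway genes. An arm left with 1 array is assumed to vary like the others. Medians of exon-level probe sets gave 1336, 949 and 527 genes and 9, 9 and 6 pathway genes. Ngfr differed from control by 1.72 to 1.94 and 1.89 to 2.11 with an array left out, and by 1.62 and 1.79 with exon-level medians. Tnfrsf11b gave 1.70 to 1.96 and 2.57 to 2.83, and 2.03 and 2.98. Between the clones Tnfrsf12a was −0.32 and not called with exon-level medians, and −0.28 after subtracting neighbours. Subtracting neighbours gave −0.18 for Tnfrsf1a, 0.11 for Tnfrsf1b and −0.10 for Ltbr. Tnfrsf21, at 0.24, passed with an intensity trend (adjusted p = 0.0127) or on genes at or above the median alone (0.0183), and ran from 0.14 to 0.33 with an array left out. Genes called for exon use numbered 627, 548 and 73, and 143 to 653, 93 to 663 and 29 to 194 with an array left out. They numbered 245, 160 and 20 on probe sets at or above the upper quartile. All probe sets gave 842 in rIAPP and 274 between the clones, and the Simes test 948 and 151. The cause of these changes was not tested, beyond the fewer arrays or probe sets.

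The letters a and b pair no samples in the labels. Their a minus b differences correlated across genes between clones at −0.041, 0.00080 and 0.00016. With the letter as a replicate block 3113, 2562 and 1800 genes were called, 20, 20 and 12 pathway genes, and 468, 362 and 56 genes for exon use.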
